A study of Mus musculus with 3 samples.

Results

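The variable (V) segments of the T cell receptor alpha and beta chains were followed in donor T cells after allogeneic bone marrow transplantation. The members were the genes of the RNA count table whose names begin with Trav or Trbv, 113 of the 18029 genes listed (85 Trav and 28 Trbv), read beside the V segment that the receptor library assigned to each cell, of which there were 89 TRAV and 22 TRBV. B6D2F1 mice had received B6 bone marrow with B6 T cells and TEa cells, which are T cells with 1 transgenic receptor. Recipients were then given saline, CSA (cyclosporine) at 5 mg/kg (CSA5) or CSA at 50 mg/kg (CSA50) from day 0 to day 6, and donor splenic T cells were sorted on day 7, with CD4+ and CD8+ cells of a group combined 1:1. Each group held 6 mice in 3 pools of 2, marked by hashtag antibodies, and all pools of a group went through 1 droplet capture, so that a capture and its treatment cannot be told apart. The p-values below measure the spread between these pools.

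A V segment supplies most of a receptor chain and carries 2 of its 3 binding loops, while the remaining loop, the CDR3, lies over the junction where the V segment was joined to its partners. The alpha locus holds many V segments in several near-identical copies, and the beta locus holds fewer that mostly differ in sequence. CD4+ and CD8+ T cells see peptide on class II and class I molecules, and the V segments they carry differ in part because of selection in the thymus. Superantigens of endogenous mammary tumour viruses bind particular beta V segments outside the CDR3. DBA/2, a parent of the B6D2F1 recipient, carries such superantigens and the class II molecule I-E that presents them well, and B6 donors lack I-E. CSA blocks calcineurin, which transmits the signal of the T cell receptor.

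The tables held 10371 CD4+ and 10833 CD8+ cells, of which the 280 marked TEa were left out of every share below. Sums per pool ranged from 3994968 to 7592334 UMIs (counted RNA molecules) for CD4+ and from 4392100 to 11454636 for CD8+ cells. The share of cells with a beta chain in the receptor table was 69.9 to 72.6% in the saline and CSA5 pools and 84.3 to 87.1% in the CSA50 pools for CD4+ cells, and 76.2 to 79.3% against 87.5 to 90.8% for CD8+ cells. The median UMIs per CD4+ cell moved the same way, from 2966 to 3174 in the saline pools to 5795 to 6300 in the CSA50 pools. The part of receptor recovery in the shares that follow was not tested, and a count that read the segment from RNA in every cell is given at the end. Cells of the 3 groups shared 218 barcodes between captures, a number that was not compared with that expected for independent captures. In 1087 cells (5.13%) the strongest hashtag was not that of the cell's pool, and 2 pools of a group shared 41 to 84 beta chains (median 71) where pools of different groups shared 1 to 8 (median 4). Without the cells of another strongest hashtag, 2 pools of a group still shared 26 to 75 beta chains (median 36). Pools of different groups then shared 1 to 7 (median 3). The pools of a group may thus not be fully separate, while the tests treat them as independent. The main results were repeated without such cells and, separately, without chains more frequent in another pool of the group.

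The sequences that identify the segments discussed are the germline 3′ ends of the V genes from the conserved cysteine codon onward, read from GRCm38 (mm10) with the GENCODE M21 annotation. Each lies in an exon of a functional V gene on the plus strand of chromosome 6. They show which members can be told apart at the start of the CDR3 and which cannot, and each is printed 5′ to 3′.
Trbv26, chr6:41227977-41227993: tgtgccagcagtctgtc
Trbv23, chr6:41216510-41216526: tgctccagcagtcaatc
Trbv16, chr6:41152214-41152230: tgtgcaagcagcttaga
Trbv15, chr6:41141642-41141658: tgtgccagcagtttagc
Trbv14, chr6:41135601-41135616: tgtgccagcagtttct
Trbv13-3, chr6:41130570-41130585: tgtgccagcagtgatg
Trbv13-2, chr6:41121817-41121832: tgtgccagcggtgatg
Trbv12-1, chr6:41114053-41114067: tgtgccagctctctc
Trbv12-2, chr6:41119350-41119364: tgtgccagctctctc
Trbv4, chr6:41059870-41059886: tgtgccagcagctaaga
Trbv12-1 and Trbv12-2 share this end, so their CDR3 sequences do not separate them. In the receptor table a joint entry named both TRBV12-2 and TRBV13-2, and its 997 clonotypes began like Trbv13-2. Of these, 82.9% shared 12 or more bases with the Trbv13-2 end and 0% with the Trbv12-2 end. The joint entry is therefore described as one unit.

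The cells marked TEa all had both chains in the receptor table. The mark may have been set from these chains, so their sameness is not a check of the table. All 280 carried TRAV14D-3-DV8 joined to TRAJ13 and TRBV19 joined to TRBJ2-7, with 1 CDR3 sequence per chain. Capitals mark the bases shared with the germline end of the V segment.
TEa alpha CDR3: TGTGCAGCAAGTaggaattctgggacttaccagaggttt
TEa beta CDR3: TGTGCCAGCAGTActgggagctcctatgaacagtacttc
The same beta sequence was found in 23 CD4+ and 2 CD8+ cells without the mark. Leaving these out changed no count of segments past the threshold by more than 1.5 times.

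At CSA50, usage of beta V segments in CD4+ T cells differed from saline for 6 of 20 segments tested, 30.0% of them, with 3 higher and 3 lower. Usage is the percentage of cells with a beta chain that carried the segment, tested on numbers of cells per pool with edgeR's quasi-likelihood test at a threshold of 0.05 on the adjusted p-value. Without adjustment 8 segments had a p under 0.05, and DESeq2 called 4. TRBV26 (Vb3), TRBV23 (Vb20) and TRBV16 (Vb11) rose, and TRBV10, TRBV13-3 (Vb8.1) and TRBV14 (Vb13) fell.

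TRBV26 made the largest gain in share. It was carried by 8.37, 8.62 and 6.67% of cells in the saline pools, 6.77, 8.95 and 7.02% in the CSA5 pools and 9.76, 16.9 and 16.7% in the CSA50 pools. The CSA50 pools lay above every saline pool, and 2 of them stood apart from the third. The log2 change was 0.87 (SE 0.21, adjusted p = 0.00562). TRBV23, a rare segment, was carried by 0.607, 0.862 and 0.858% of cells with saline and 1.28, 1.87 and 3.34% at CSA50, with CSA5 pools at 1.13, 0.759 and 1.23%. Its log2 change was 1.45 (SE 0.37, adjusted p = 0.0063), again with no overlap between CSA50 and saline. TRBV16, which answers superantigens shown by I-E, was carried by 9.59, 7.76 and 7.05% of cells with saline, 10.0, 10.9 and 11.3% at CSA5 and 10.7, 12.4 and 11.0% at CSA50. Its change was smaller, at 0.49 (SE 0.18, adjusted p = 0.04), and it missed the threshold in 12 of 21 alternatives.

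Among the segments that fell, TRBV10 had the widest spread between saline pools. It was carried by 7.52, 4.41 and 2.96% of cells with saline, 5.32, 3.95 and 5.54% at CSA5 and 1.51, 2.58 and 2.67% at CSA50, a log2 change of -1.10 (SE 0.29, adjusted p = 0.0063). In saline pool 1, 1 clonotype of 26 cells made up 41.9% of the TRBV10 cells. TRBV13-3, a segment of the Vb8 family, was even across saline pools at 7.28, 7.18 and 7.53% and lower in each CSA50 pool at 3.72, 5.97 and 3.11%. Its log2 change was -0.78 (SE 0.22, adjusted p = 0.00665). TRBV14 was at 4.13, 4.79 and 3.34% with saline and 3.02, 2.11 and 2.34% at CSA50, a log2 change of -0.71 (SE 0.24, adjusted p = 0.0268). The CSA5 pools lay below all saline pools for TRBV14, at 1.77, 3.19 and 3.20%.

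**Figure D1:**
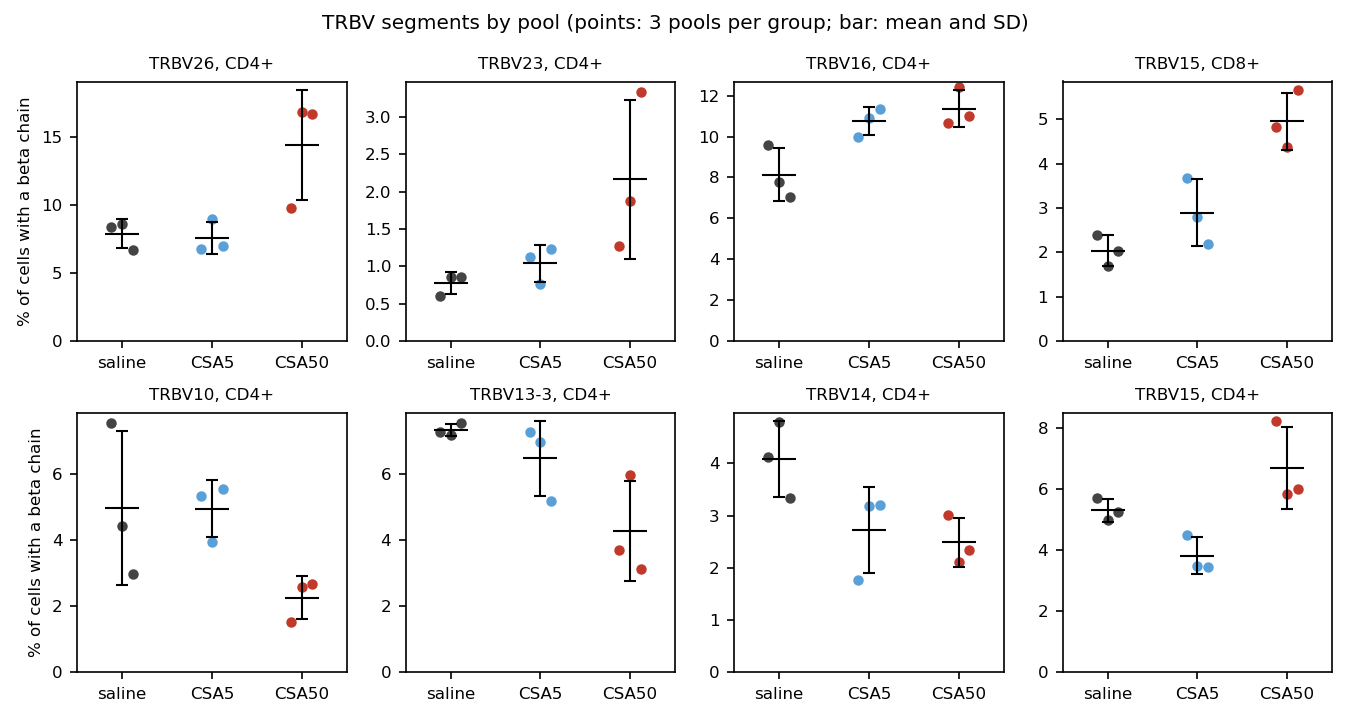
Each panel plots 1 TRBV segment in CD4+ or CD8+ T cells, with the percentage of cells with a beta chain on the y axis and the groups saline, CSA5 and CSA50 on the x axis. Points are the 3 pools of a group and the bar is their mean with the SD. In CD4+ cells the 3 CSA50 pools sit between 9.76 and 16.9% for TRBV26, all above the saline pools, and between 3.11 and 5.97% for TRBV13-3, all below them.

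These calls depended on the spread taken from all 9 pools. When only the CSA50 and saline pools were fitted, the adjusted p-values of all 6 rose to between 0.052 and 0.082 and none was called. Without CSA50 pool 3 the count was 2, and TRBV23 changed by 0.99 instead of 1.45, and TRBV13-3 (-0.60), TRBV14 (-0.67) and TRBV16 (0.51) also missed the threshold. Without saline pool 2 the count was 4, and TRBV14 (-0.57) and TRBV16 (0.46) missed it. TRBV14 missed it also without CSA50 pool 2 (-0.61), as did TRBV16 (0.42), which was lost without saline pool 3 (0.40) and without CSA5 pool 2 or 3 (0.49) as well. Without cells of another strongest hashtag the count was 6, and without chains more frequent in another pool of the group it was 7. Under the exact trend test over 3 ordered groups none was called, with a smallest adjusted p of 0.0635. The directions of the 6 segments held in every alternative run on receptor chains.

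The other segments of CD4+ cells did not pass the threshold at CSA50. TRBV12-1 (Vb5.2) was at 0.729% ± 0.22 (SD, n = 3) with saline and 1.41% ± 0.35 at CSA50, with pools that did not overlap (adjusted p = 0.0514). TRBV12-2 (Vb5.1) was at 0.408% ± 0.24 and 0.883% ± 0.19 (adjusted p = 0.116). TRBV15 (Vb12) was at 5.31% ± 0.37 with saline, 3.82% ± 0.60 at CSA5 and 6.70% ± 1.3 at CSA50 (adjusted p = 0.176). TRBV19 (Vb6), the segment of the TEa receptor, was at 10.2% ± 2.3, 9.71% ± 0.52 and 9.32% ± 1.9 in the 3 groups. For the other 10 segments tested, the log2 changes at CSA50 lay between -0.67 for TRBV17 (Vb9) and 0.32 for TRBV29 (Vb7).

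Read by superantigen, 5 segments known to answer endogenous viral superantigens other than Mls-1a (TRBV12-1, TRBV12-2, TRBV15, TRBV16 and TRBV26) were together carried by 22.4% ± 2.4 (SD, n = 3) of CD4+ cells with saline, 23.2% ± 0.65 at CSA5 and 34.2% ± 2.6 at CSA50. In CD4+ cells 2 of the 5 passed the test at CSA50, both higher. The median log2 change was 0.87 over the 5 against -0.15 over the 11 segments of no list, of which 1 was higher and 2 were lower. This median is the change of TRBV26 itself, the segment with the largest gain in share. The lists were chosen with earlier results of these data known, so the contrast between them is a description and not a test. The 4 segments that answer Mls-1a, which DBA/2 carries (TRBV13-3, TRBV17, TRBV19 and TRBV29), were at 20.3% ± 1.8 with saline, 19.0% ± 1.8 at CSA5 and 16.3% ± 2.2 at CSA50. Of them 1, TRBV13-3, was lower, and the median log2 change was -0.41. In CD8+ cells the first list went from 21.8% ± 2.1 with saline and 22.6% ± 1.1 at CSA5 to 27.5% ± 0.99 at CSA50, with 1 of 5 segments past the test and a median of 0.51. The Mls-1a list was at 30.9% ± 3.7, 33.2% ± 1.8 and 32.1% ± 1.9 there, with none of 4 past the test.

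In CD8+ T cells 1 of 20 beta segments, 5.00%, passed the test at CSA50, and it was TRBV15. It was carried by 2.40, 1.70 and 2.02% of cells in the saline pools, 3.68, 2.80 and 2.19% in the CSA5 pools and 4.83, 4.37 and 5.65% in the CSA50 pools. The log2 change was 1.28 (SE 0.24, adjusted p = 0.00188). It kept its direction and its side of the threshold in all 21 alternatives to the fit, with adjusted p-values from 0.000324 to 0.0282. Under the exact trend test over 3 ordered groups it was not called (exact test, adjusted p = 0.0714). Unadjusted, 3 segments had a p under 0.05 and DESeq2 called 1. TRBV19 was at 5.98% ± 0.52 (SD, n = 3) with saline, 7.40% ± 0.42 at CSA5 and 8.41% ± 1.9 at CSA50, and TRBV12-2 at 3.89% ± 0.84, 3.35% ± 0.92 and 5.62% ± 0.91, and both missed the threshold (adjusted p = 0.20). Without saline pool 2 the count was 3, and without saline pool 3 it was 2.

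At CSA5 no beta segment passed edgeR's test in either lineage, 0% of 20 each. Unadjusted, 4 segments in CD4+ and 1 in CD8+ cells had a p under 0.05, and DESeq2 called 0. Without saline pool 2, 1 segment was called in CD8+ cells. Both doses were compared with the same saline pools. For the alpha chain no segment was called at either dose, out of 61 tested in CD4+ and 59 in CD8+ cells, by edgeR or DESeq2. In simulated counts with known changes in usage, the alpha fits recovered 34 of 60 changes in CD4+ and 44 of 60 in CD8+ cells. The beta fits recovered 51 and 52 of 60, so changes in alpha usage were missed more often there. The numbers of TRAV segments with an unadjusted p under 0.05 were 5 and 1 in CD4+ and 4 and 5 in CD8+ cells, for CSA5 and CSA50. The most used TRAV segment of CD4+ cells, TRAV7D-2, was at 6.10% ± 1.9 (SD, n = 3) with saline, 7.46% ± 1.0 at CSA5 and 6.49% ± 2.1 at CSA50. In CD8+ cells the most used was TRAV16N, at 9.57% ± 1.0, 9.26% ± 2.1 and 11.0% ± 1.3.

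V usage differed between CD8+ and CD4+ cells of the same pools for most segments. With pool as a block, 18 of 20 TRBV segments (90.0%) differed between CD8+ and CD4+ cells, 8 higher and 10 lower in CD8+, and 34 of 55 TRAV segments (61.8%), 13 higher and 21 lower. Among the TRBV segments more used by CD8+ cells, 4 had the largest differences. TRBV12-1 was carried by 1.01% ± 0.37 (SD, n = 9) of CD4+ and 7.74% ± 1.3 of CD8+ cells, a log2 difference of 2.90 (SE 0.19). TRBV12-2 was at 0.625% ± 0.28 and 4.29% ± 1.3, TRBV29 at 2.01% ± 0.35 and 11.8% ± 1.8, and TRBV17 at 0.907% ± 0.52 and 3.24% ± 2.1. All of these were higher in CD8+ cells in 9 of 9 pools. Smaller excesses in CD8+ cells were seen for TRBV13-3 (0.76), TRBV14 (0.69), TRBV10 (0.62) and TRBV13-1 (0.54 on the log2 scale), each in 8 of 9 pools.

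CD4+ cells used other segments more. TRBV26 was at 9.97% ± 4.0 (SD, n = 9) of CD4+ and 2.55% ± 0.58 of CD8+ cells, a log2 difference of -1.94 (SE 0.16). TRBV31 (Vb14) was at 8.0% ± 1.8 and 2.19% ± 0.56, TRBV20 (Vb15) at 4.51% ± 0.89 and 1.71% ± 0.37 and TRBV23 at 1.33% ± 0.84 and 0.237% ± 0.13, lower in CD8+ cells in 9 of 9 pools. TRBV2 (-1.06), TRBV1 (-0.80), TRBV15 (-0.74), TRBV16 (-0.65), TRBV19 (-0.43) and TRBV5 (-0.41) were also lower. TRBV3 (log2 difference 0.19, SE 0.15, adjusted p = 0.23) and the joint TRBV12-2 and TRBV13-2 entry (-0.02, SE 0.14, adjusted p = 0.92) did not pass, and TRBV13-2 alone and TRBV30 had too few cells for the test. The superantigen lists did not move as units, since 3 of the 4 Mls-1a segments were higher and TRBV19 lower in CD8+ cells, and 2 of the 5 others were higher and 3 lower.

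**Figure D2:**
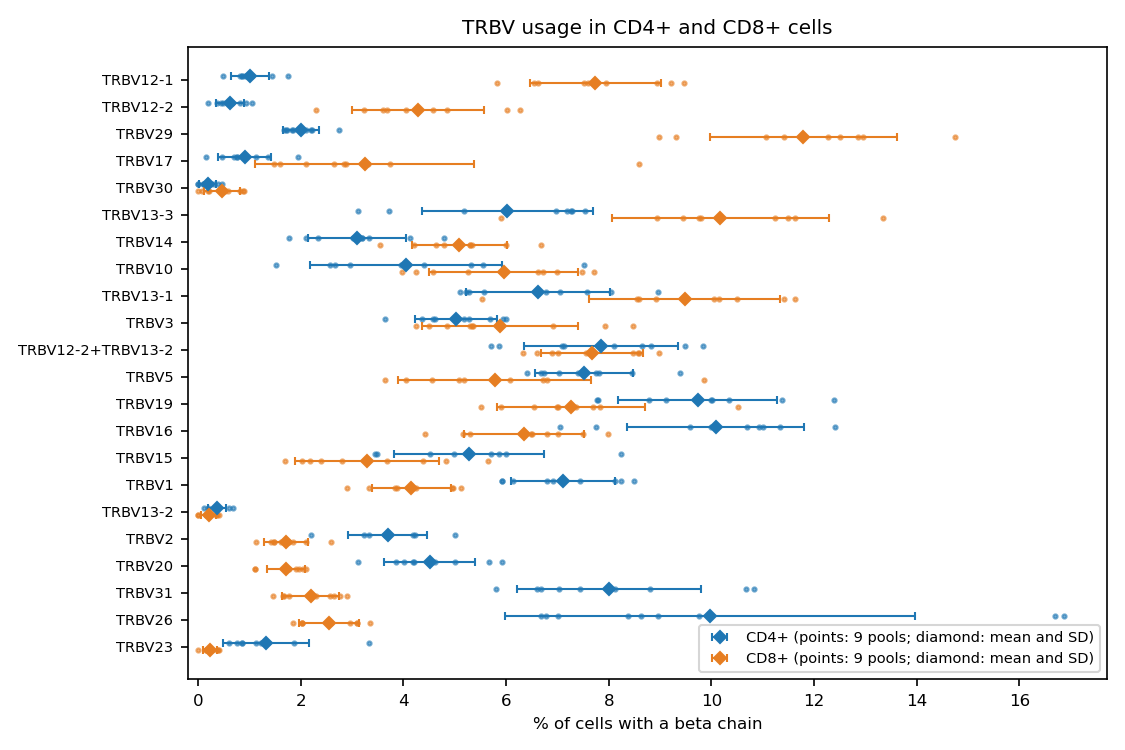
The plot gives the percentage of cells with a beta chain (x axis) that carried each TRBV segment (y axis), sorted by the ratio of CD8+ to CD4+ usage. Small points are the 9 pools, and diamonds are the mean with the SD. TRBV23, TRBV26 and TRBV31 lie at the CD4+ end, and TRBV12-1, TRBV12-2 and TRBV29 at the CD8+ end, each with no overlap between the lineages.

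For the alpha chain the contrast ran through some families, which are groups of related gene copies on chromosome 14, and split others. The TRAV16 family was carried by 2.62% ± 0.82 (SD, n = 9) of CD4+ and 18.3% ± 2.8 of CD8+ cells with an alpha chain, a log2 difference of 2.83 (SE 0.14), and its 3 tested segments were all higher in CD8+ cells. TRAV16N alone was at 1.44% ± 0.73 and 9.93% ± 1.5. The TRAV12 family was at 8.43% ± 1.5 and 19.6% ± 2.4 (log2 difference 1.22), higher for 4 of 5 segments, among them TRAV12D-3 at 1.87 and 7.85%. The TRAV14 family, which holds the alpha segment of the TEa receptor, went the other way. It was at 16% ± 1.8 of CD4+ and 4.36% ± 1.0 of CD8+ cells (log2 difference -1.90), lower for 6 of 7 segments, with TRAV14N-3 at 4.23 and 0.730% and TRAV14-2 at 3.13 and 0.484%. TRAV14D-3-DV8 itself, in cells without the TEa mark, was at 1.77% ± 0.41 and 0.528% ± 0.31. The TRAV4 family (9.21 and 3.15%) and the TRAV10 family (6.13 and 3.41%) were lower in CD8+ cells in all their tested segments. In the TRAV6, TRAV8 and TRAV9 families 2 segments were higher and 1 lower in CD8+ cells, of 6, 3 and 5 tested, in the TRAV7 family 2 of 8 were lower, and in the TRAV3 family 0 of 2 passed the test. Of the single segments over 3% in a lineage, TRAV4D-4 (-1.56), TRAV7D-2 (-1.43) and TRAV10 (-1.09) were lower in CD8+ cells, and TRAV12-2 (1.80), TRAV12D-2 (0.80) and TRAV6-6 (0.56) were higher on the log2 scale, while TRAV3D-3 (0.41, adjusted p = 0.084) and TRAV6N-7 (0.12, adjusted p = 0.61) did not pass.

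The copies within a family often end alike, which limits what a single copy's share can say. The 3 copies of TRAV16 share 1 germline end and so do the copies of TRAV14, both on the plus strand of chromosome 14 and in exons.
Trav16, chr14:53743689-53743705: tgtgctatgagagaggg
Trav16n, chr14:53351605-53351621: tgtgctatgagagaggg
Trav14-2, chr14:53641213-53641225: tgtgcagcaagtg
Trav14d-3-dv8, chr14:53079033-53079045: tgtgcagcaagtg

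A share of cells can move because more different receptors carry a segment or because a few of them expanded, so usage was also counted over clonotypes, here distinct pairs of V segment and CDR3 nucleotide sequence in a pool. In CD4+ cells at CSA50, 6 of 20 TRBV segments (30.0%) passed the test over clonotypes, with 10 at an unadjusted p under 0.05 and 3 called by DESeq2. TRBV26 made up 7.91, 8.51 and 7.07% of clonotypes with saline and 10.8, 17.0 and 15.6% at CSA50, a log2 change of 0.89 (SE 0.15, adjusted p = 3.05e-05), close to the 0.87 over cells. TRBV13-3 made up 8.06, 7.63 and 8.25% and then 4.07, 4.65 and 3.34%, a change of -1.0 (adjusted p = 3.78e-05). Both passed in all 16 alternatives. TRBV23 (1.33), TRBV16 (0.48) and TRBV12-1 (1.18) were higher and TRBV10 (-0.70 on the log2 scale) lower. TRBV10 missed the threshold without saline pool 1 (-0.61, adjusted p = 0.07), without saline pool 2 (-0.64) and without CSA50 pool 1 (-0.53). TRBV12-1 missed it without saline pool 1 (1.12), without saline pool 3 (1.02) and without CSA50 pool 1 (0.97). TRBV16 missed it without saline pool 2 (0.43) and TRBV23 without CSA50 pool 3 (0.88). At CSA5 none of 20 passed (0%), with 2 unadjusted and 0 by DESeq2.

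In CD8+ cells 3 of 20 TRBV segments (15.0%) passed over clonotypes at CSA50. TRBV15 changed by 0.76 (SE 0.21, adjusted p = 0.0152), less than the 1.28 over cells, TRBV12-1 by 0.45 (adjusted p = 0.0417) and the joint TRBV12-2 and TRBV13-2 entry by -0.47 (adjusted p = 0.0375). DESeq2 called 0, and 3 had an unadjusted p under 0.05. The count was 0 without saline pool 2, saline pool 3 or CSA50 pool 1, and it was 1 without CSA50 pool 2 and also without chains more frequent in another pool of the group. Of the TRAV segments, 1 of 56 (1.79%) was called, TRAV9N-4 in CD8+ cells at CSA5, from 1.74% ± 0.37 (SD, n = 3) of clonotypes with saline to 0.538% ± 0.16. It had been 1 of 3 with an unadjusted p under 0.05, DESeq2 called 0, and the call was lost without saline pool 1 or 3 or any CSA5 pool and with pool number as a block (-1.67, adjusted p = 0.079).

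Expanded clonotypes shaped V usage mainly in the CD8+ cells of saline recipients. Clonotypes of 10 or more cells held 13.7, 13.4 and 10.2% of CD8+ beta chains in the saline pools, 1.93, 3.10 and 2.14% in the CSA5 pools and 0% in each CSA50 pool. In CD4+ cells these values were 6.21, 1.16 and 1.95% with saline, 0, 1.71 and 0% at CSA5 and 1.11, 1.09 and 0% at CSA50. The 3 largest of CD8+ cells and the 2 largest of CD4+ cells are shown, with the bases shared with the germline V end in capitals, as examples of how 1 clonotype bears on the share of its segment.
TRBV13-3 to TRBJ1-1, CD8+, saline pool 2, 75 cells: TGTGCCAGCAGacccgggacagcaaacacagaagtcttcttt
TRBV17 to TRBJ2-2, CD8+, saline pool 1, 70 cells: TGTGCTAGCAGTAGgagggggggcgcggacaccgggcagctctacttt
TRBV12-1 to TRBJ2-5, CD8+, saline pool 1, 37 cells: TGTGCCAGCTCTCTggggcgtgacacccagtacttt
TRBV15 to TRBJ2-3, CD4+, saline pool 1, 27 cells: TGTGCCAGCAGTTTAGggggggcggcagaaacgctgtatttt
TRBV10 to TRBJ2-7, CD4+, saline pool 1, 26 cells: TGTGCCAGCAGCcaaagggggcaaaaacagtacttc
The TRBV17 clonotype made up 6.46% of the CD8+ cells of its pool. TRBV17 stood at 8.58% there and would have been 2.27% without it, against 2.10 and 3.31% in the other saline pools. The TRBV13-3 clonotype made up 6.07% of its pool, where TRBV13-3 stood at 13.3% and would have been 7.75%. The CD4+ TRBV15 clonotype held 57.4% of the TRBV15 cells of its pool, which would have been at 2.51% instead of 5.70%. None of these chains was seen outside the saline pools, but each was found in more than 1 of them. The TRBV17 chain was in 70, 3 and 10 cells of saline pools 1, 2 and 3. The TRBV15 and TRBV10 chains shown for CD4+ cells were also in 4 and 1 CD8+ cells.

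**Figure D3:**
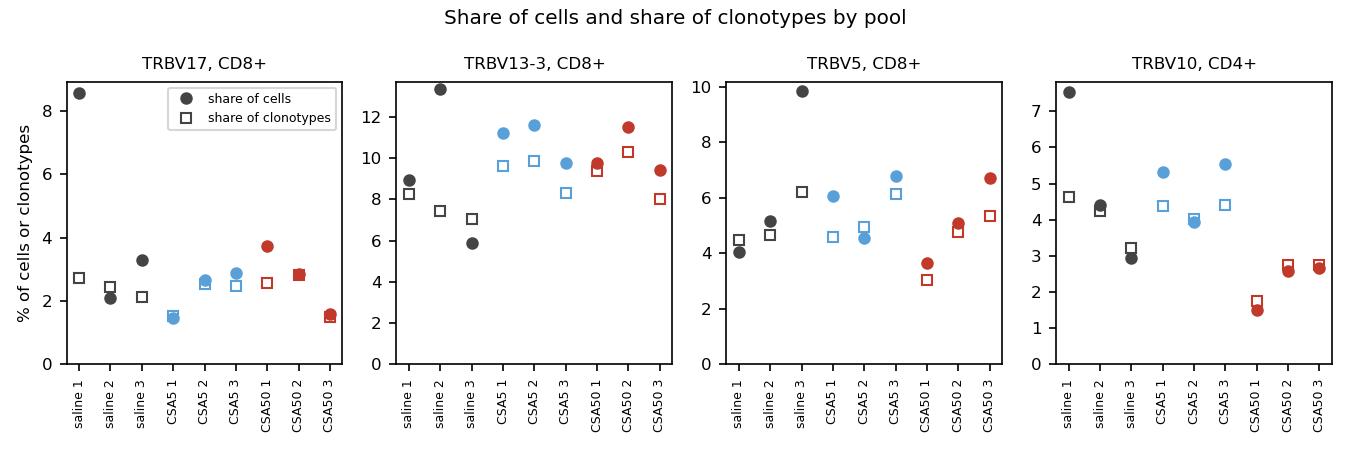
Each panel gives, for 1 segment, the percentage of cells (filled circles) and of clonotypes (open squares) on the y axis in each of the 9 pools on the x axis. For TRBV17 in CD8+ cells the saline pool 1 circle is at 8.58%, far above its square, and for TRBV10 in CD4+ cells the circle of saline pool 1 is at 7.52% above a square at 4.63%. The other panels are TRBV13-3 and TRBV5 in CD8+ cells, where the circles of saline pool 2 and saline pool 3 stand highest.

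Over all 9 pools, the cell share exceeded the clonotype share for 5 of 17 TRBV segments of CD4+ cells, 29.4%, by the exact two-sided sign-flip test over pools, whose smallest p is 0.00391. These were TRBV15, TRBV14, TRBV5, TRBV20 and TRBV16, with mean log2 ratios of 0.22, 0.20, 0.15, 0.13 and 0.13, each above 0 in 8 of 9 pools (exact test, adjusted p = 0.0332, and 0.0398 for TRBV20). TRBV26 had a ratio of -0.02, in 3 of 9 pools above 0 (exact test, adjusted p = 0.587). The calls were lost when the largest clonotype of each segment and pool was left out and when clonotypes were defined by both chains, and in 7 of the 9 fits without 1 pool. In CD8+ cells 0 of 18 passed (0%), with the largest mean ratio at 0.33 for TRBV17.

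V usage also differed between the clusters that the authors defined from RNA, which are given by number here and as a description, because the RNA behind them can include the V genes. CD4+ cluster 1 held 365 cells with saline, 509 at CSA5 and 783 at CSA50. TRBV26 was carried by 13.1% of its cells with saline, 9.16% at CSA5 and 24% at CSA50. The CSA50 share was above the saline share also in cluster 2 (15.0 against 7.08%), cluster 5 (12.6 against 5.85%), cluster 7 (13.5 against 6.16%) and cluster 8 (17.0 against 4.10%), and in clusters 4, 6 and 10, whose CSA50 cells numbered 66 or fewer. It was not in cluster 0 (8.36 against 9.24%), cluster 3 (9.88 against 10.2%) or the small clusters 9, 11 and 12. TRBV13-3 was lower at CSA50 in clusters 0 (3.28 against 7.24%), 1 (3.99 against 9.13%) and 2 (4.38 against 7.65%), but not in clusters 3 (4.35 against 4.08%), 4 (9.09 against 6.81%) or 7 (5.26 against 4.11%). In CD8+ cells the TRBV15 share was higher at CSA50 than with saline in clusters 1 (4.42 against 1.68%), 2 (5.80 against 1.66%), 8 (5.32 against 3.08%) and 9 (4.29 against 2.69%), and in every other cluster but cluster 3, where 20 CSA50 cells held none.

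Clusters that stood out by Ccr7 or Foxp3 RNA had their own usage. CD4+ cluster 9 had the highest Ccr7 RNA of the CD4+ clusters, which codes for a chemokine receptor of resting T cells, and its 204 beta entries were all distinct. TRBV26 was found in 1 of its 192 cells with a beta chain (0.521%, exact 95% binomial interval 0.0132 to 2.87%) against 4.35 to 17.4% in the other CD4+ clusters. TRBV16 was at 2.08% (0.570 to 5.25%) against 7.33 to 13.4%, and TRBV31 at 17.2% (12.1 to 23.3%) against 2.90 to 9.73%. Intervals cover counting error only. CD4+ cluster 11 had Foxp3 RNA, the factor of regulatory T cells, at 551 CPM (counts scaled to the cluster's total UMIs) and held 20 cells with saline, 25 at CSA5 and 59 at CSA50. Of its 73 cells with a beta chain 23.3% (14.2 to 34.6%) carried TRBV3 and 16.4% (8.8 to 27%) TRBV12-1, against 2.60 to 6.88% and 0 to 1.28% in the other clusters. TRBV5 was in 0 of the 73, which allows a share of up to 4.11%. In CD8+ cells, cluster 6 had the highest Ccr7 RNA. TRBV29 was at 4.59% there (2.59 to 7.45%) against 9.79 to 15.5% elsewhere, the TRAV16 family at 10.2% against 16.3 to 22.9% and the TRAV14 family at 12.7% against 3.54 to 4.56%.

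**Figure D4:**
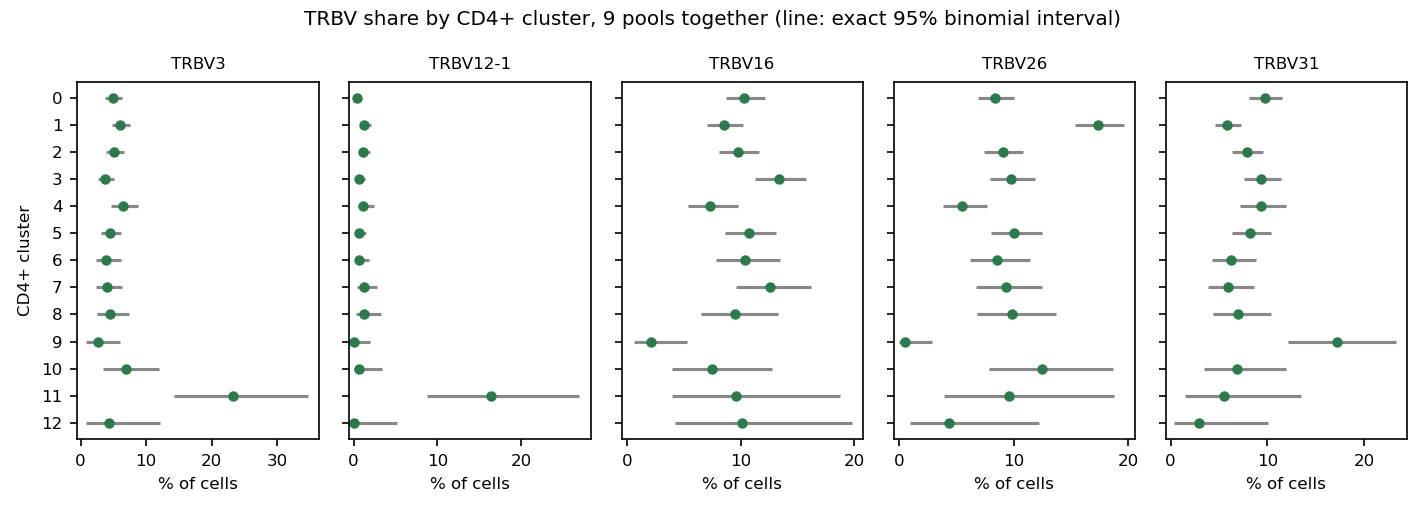
The panels plot the percentage of CD4+ cells with a beta chain (x axis) that carried TRBV3, TRBV12-1, TRBV16, TRBV26 or TRBV31 in each cluster (y axis), over the 9 pools together, with the exact 95% binomial interval as a line. Cluster 11 stands out for TRBV3 at 23.3% and TRBV12-1 at 16.4%, and cluster 9 for TRBV26 at 0.521% and TRBV31 at 17.2%.

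The semi-invariant receptors of innate-like T cells were rare. The chain TRAV11 with TRAJ18, which marks type I natural killer T cells, was found in 16 of 7212 CD4+ cells with an alpha chain (0.222%, exact 95% binomial interval 0.127 to 0.360%). Of these, 2, 8 and 5 came from the CSA50 pools, 1 from saline pool 3 and 0 from CSA5. They carried 5 nucleotide sequences of 1 length, of which the most frequent, in 6 and 5 cells, are shown with the germline part in capitals.
TRAV11 to TRAJ18, 6 cells: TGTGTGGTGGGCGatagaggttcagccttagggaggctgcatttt
TRAV11 to TRAJ18, 5 cells: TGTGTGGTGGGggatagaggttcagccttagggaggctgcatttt
Of the 15 cells that also had a beta chain, 7 carried the joint TRBV12-2 and TRBV13-2 entry, 3 TRBV13-1 and 2 TRBV13-3, the Vb8 family known from these cells. CD4+ cluster 12 held 11 of the 16. Its Zbtb16 RNA, which codes for a factor of innate-like T cells, was at 20.2 CPM against 1.19 or less in the other CD4+ clusters. This is a low value summed over 85 cells. The cluster held 30 cells with saline, 32 at CSA5 and 23 at CSA50, and most of them were not found to carry TRAV11 with TRAJ18. In CD8+ cells 1 cell had this pair. TRAV1 with TRAJ33, the chain of mucosal-associated invariant T cells, was in 0 of 7212 CD4+ cells, which allows a share of up to 0.0416%, and in 0 of 7986 CD8+ cells, which allows 0.0376%.

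V gene RNA gave a second reading of usage. In sums of UMIs over a pool, fewer cells that carry a segment and less RNA per cell cannot be told apart. At CSA50, 30 of 82 V genes tested in CD4+ cells and 44 of 84 in CD8+ cells passed the test of UMI counts over all genes, where 70.5% and 74.0% of all genes passed. At CSA5 these were 22 of 82 and 19 of 84, beside 51.7% and 60.2%. Over Trav and Trbv genes together, these shares were no higher than over all genes. At CSA50, 77.3% of Trbv and 21.7% of Trav genes passed in CD4+ cells, and 68.2% and 46.8% in CD8+ cells. Of the Trbv genes, 17 of 22 were higher and 0 lower in CD4+ cells at CSA50 (median log2 change 0.64, beside 34.7% of all genes higher and 35.8% lower), and 15 of 22 were higher and 0 lower in CD8+ cells (0.66, beside 37.1% and 36.9%). At CSA5, 10 of 22 were higher and 0 lower in CD4+ cells (0.32, beside 26.1% and 25.6%), and 9 were higher and 1 lower in CD8+ cells (beside 29.9% and 30.3%). These directions depended on scaling. Under library size in place of TMM, which moved the median of all genes by -0.45 and -0.53, 8 Trbv genes were higher and 4 lower in CD4+ cells, and 9 higher and 1 lower in CD8+ cells. Trav genes were 11 higher and 2 lower of 60 in CD4+ cells and 28 higher and 1 lower of 62 in CD8+ cells, but 1 higher and 14 lower, and 8 higher and 6 lower, under library size. At CSA5, where library size moved the median of all genes by -0.37 and -0.43, 4 Trbv genes were higher and 6 lower in CD4+ cells (median -0.04), and 4 higher and 4 lower in CD8+ cells (median -0.12).

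Total Trbv RNA per cell was higher where cells had more UMIs. It was 6.41 ± 0.31 UMIs per CD4+ cell (SD, n = 3) with saline, 8.43 ± 0.32 at CSA5 and 14.2 ± 0.60 at CSA50, and 8.26 ± 0.49, 11.3 ± 1.1 and 16.3 ± 0.11 per CD8+ cell. As CPM it was 1735 ± 32, 1683 ± 64 and 2094 ± 106 in CD4+ cells and 1722 ± 48, 1632 ± 70.0 and 2043 ± 169.6 in CD8+ cells, with no overlap between CSA50 and saline (exact permutation test, p = 0.1, the smallest that 3 pools against 3 allow). Trav RNA was at 819 ± 11, 646 ± 15 and 691 ± 23 CPM in CD4+ cells, lower at CSA50 than with saline in every pool (exact permutation test, p = 0.1). In CD8+ cells it was at 560 ± 21, 421 ± 35 and 547 ± 34 CPM (exact permutation test of CSA50 against saline, p = 0.6).

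The RNA of the V genes was higher at CSA50 for the 3 segments whose usage had risen in CD4+ cells and for TRBV15 in CD8+ cells, while for the segments whose usage had fallen it did not pass the test. Trbv26 RNA in CD4+ cells was at 86.9, 75.8 and 65.6 CPM (TMM-scaled) with saline and 152, 249 and 245 at CSA50, a log2 change of 1.52 (SE 0.13). Trbv23 changed by 1.88 (SE 0.24) and Trbv16 by 1.34 (SE 0.08), and all 3 were called under library size too, at 1.08, 1.44 and 0.90. Trbv13-3 was at 88.6, 89.0 and 85.6 with saline and 81.3, 98 and 49.7 at CSA50, a change of -0.21 (adjusted p = 0.19) where the median of the tested Trbv genes was 0.64, and of -0.65 under library size (adjusted p = 0.00044). Its CSA50 pool 2 lay above every saline pool. Trbv4, which is read beside TRBV10, changed by -0.39 (adjusted p = 0.22) and by -0.82 under library size (adjusted p = 0.0114), and Trbv14 by 0.24 (adjusted p = 0.19). Trbv15 RNA in CD8+ cells was at 53.1, 47.5 and 51.1 with saline, 95.4, 89.6 and 79.7 at CSA5 and 242, 180 and 225 at CSA50, a change of 2.09 (SE 0.09) that was 1.56 under library size. Trbv1 (0.84 in CD4+ and 1.45 in CD8+ cells) also rose at CSA50, although TRBV1 usage had not passed the test. The Trbv19 change in CD4+ cells was 0.20 (adjusted p = 0.036) and turned to -0.24 under library size.

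In single cells the RNA and the receptor mostly gave the same name for the beta segment. Of 15412 cells with 1 TRBV in the receptor table, 97.6% had a Trbv UMI, and for 19 of 22 segments the gene of the same name was the highest in 93.7 to 98.9% of those. The exceptions were TRBV10, TRBV5 and the joint entry. None of the 710 cells with TRBV10 had a Trbv10 UMI, and Trbv4 was the highest gene in 66.7% of the 619 that had a Trbv UMI. A Trbv4 UMI was found in 66.6% of them and in 0.932% of cells with other segments. Of the 614 TRBV10 clonotypes, 86.3% shared 12 or more bases with the Trbv4 germline end printed above, and GENCODE M21 annotates Trbv10 as a pseudogene. The receptor table lists no TRBV4, so TRBV10 was read beside Trbv4 (Vb10) in the RNA. In the joint entry the highest gene was Trbv13-2 in 97.1% of the 1107 cells with a Trbv UMI, of 1115 in all. TRBV5 cells (955) had Trbv5 RNA at 0.73 UMIs per cell, and Trbv5 was highest in 48.9% of the 760 with a Trbv UMI.

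For the alpha chain the names matched less often. Of 13830 cells with 1 TRAV, 76.2% had a Trav UMI, and the highest gene had the receptor's name in 71.5% of those. Some gene copies are identical over the last 250 bases of the V segment. Of 49 segments with 100 or more cells, 12 had such a copy, and their same-name share was 0 to 12.9% (median 0). For 8 of the 12, among them TRAV12D-3, TRAV4D-4 and TRAV6-6, no RNA gene of that name was listed. The other 37 segments had same-name shares of 30.5 to 99.5% (median 88.5%). Reads of identical copies cannot be assigned to 1 copy, so the RNA of Trav genes with such copies is uncertain.

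**Figure D5:**
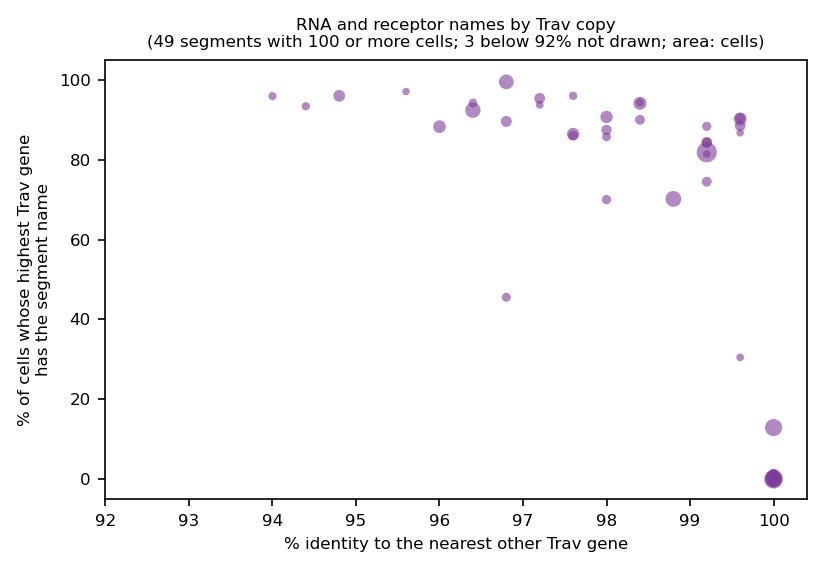
For the TRAV segments with 100 or more cells, the plot sets the percentage of cells whose highest Trav gene has the segment's name (y axis) against the identity of the gene to its nearest copy over 250 bases (x axis, percent), with the area of a point in proportion to its cells. Segments at 100% identity lie at or below 12.9%, and 3 segments below 92% identity are not drawn.

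As receptor recovery differed between groups, the beta segment was also read from RNA in every cell, as the Trbv gene with at least 2 UMIs and more than any other. This assigned 74.4 to 79.4% of CD4+ cells in the saline and CSA5 pools and 89.5 to 92.4% in the CSA50 pools. It called 8 segments in CD4+ cells at CSA50. TRBV26 (0.89, adjusted p = 1.82e-05), TRBV23 (1.85), TRBV16 (0.55), TRBV13-3 (-1.05) and TRBV14 (-0.77) were called in the same direction as from the receptor. The other 3 were TRBV5, TRBV17 and TRBV19, which the receptor count had not called. TRBV5 was higher at CSA50, at 1.68 to 1.84% against 0.270 to 1.08% with saline, but was read in 82 cells only. TRBV17 (0.651 to 0.876% against 1.17 to 2.61% with saline) and TRBV19 (9.64 to 12.7% against 14.2 to 17.5%) were lower. Among read cells without a receptor beta chain, TRBV19 made up 34.7% with saline and 19.3% at CSA50. The part of RNA depth per cell in these changes was not tested. TRBV10 was read in 86 cells only, through Trbv4, and its change was 0.13 (adjusted p = 0.773). TRBV15 in CD8+ cells changed by 1.19 (adjusted p = 0.000324). At CSA5 this count called 2 segments in CD4+ cells, where the receptor count had called 0.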

How the data were processed

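Donor T cells from 3 groups were profiled with droplet RNA, hashtag antibody and receptor libraries. The deposited RNA table gives unnormalised UMI counts for each cell, which the authors produced with Cell Ranger and Seurat 3.0.0 on mm10 per the submitters' processing notes. Aligner settings and the gene annotation are not given in the sources used here. Receptor chains, pool and cluster of each cell were taken as deposited, and no doublet caller was run. UMI sums matched the authors' column in all 21204 cells. In the CD8+ table Cd4 was at 0 and in the CD4+ table Cd8a was at 0 in every pool. This may follow from how the tables were split, so it is not a check of purity. A TRBV3 chain in 39 CD8+ cells was also in 6 CD4+ cells. Groups came from the sample titles, and pools of 2 mice were the replicates.

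Cells and clonotypes per segment and pool were tested with edgeR 4.0.16 (quasi-likelihood, all 9 pools in 1 fit, cells or clonotypes with the chain as library size, segments with low counts left out by filterByExpr with a minimum of 5, Benjamini-Hochberg adjustment per lineage and chain, R 4.3.3). CD8+ and CD4+ cells were compared with pool as a block. V gene RNA was summed per pool and tested among all genes (TMM, minimum count 10). Cell and clonotype shares were compared by an exact sign-flip test for segments with 5 or more clonotypes in every pool. Clusters were described over pools together. A further cluster marker is not reported here. Alternatives were DESeq2 1.42.0, other scaling, filters and samples, the trend test, replicates left out, pool number as a block, both chains as a clonotype and cells with 2 beta chains left out. Leaving out other-hashtag cells or chains more frequent in another pool, merging TRAV families, reading the segment from RNA, single-dose lineage fits and the interaction test were added after seeing the data. The fits were checked on simulated data.

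All TRBV segments were described, and TRAV segments at 3% or more over the pools of a lineage, among the 5 largest changes past the threshold at CSA50, or part of the TEa receptor. TRAV9N-4 and TRAV14 and TRAV16 copies outside this rule were named after their values were seen. Members and lists were chosen with earlier results of these data known. Intervals are exact binomial at 95%, and the limit for 0 cells is 3 cells of the total. Per pool, 3994968 to 11454636 UMIs were counted.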

Additional observations from a re-analysis of the deposited data

Results flagged for a closer look

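For 3 segments the change from saline differed between CD8+ and CD4+ cells by an interaction term fitted with edgeR over 21 TRBV segments, with pool as a block. The difference of log2 changes, CD8+ minus CD4+, was 1.05 for TRBV14 at CSA5 (SE 0.33, adjusted p = 0.0424) and 1.06 at CSA50 (SE 0.32, adjusted p = 0.0208). At CSA50 it was 0.98 for TRBV13-3 (SE 0.32, adjusted p = 0.0208) and 0.96 for TRBV15 (SE 0.31, adjusted p = 0.0208). TRBV14 went from 4.08% ± 0.73 (SD, n = 3) of CD4+ cells with saline to 2.72% ± 0.82 at CSA5 and 2.49% ± 0.47 at CSA50, and from 4.18% ± 0.62 of CD8+ cells to 5.77% ± 0.79 and 5.31% ± 0.69. TRBV13-3 fell in CD4+ cells, and in CD8+ cells it was at 9.40% ± 3.7 with saline and 10.2% ± 1.1 at CSA50, where saline pool 2 held the clonotype of 75 cells. Both doses share the saline pools. The part of the captures, which differ with the treatment, cannot be told apart from it.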

How the results depend on the processing

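Over the alternatives of single segments and genes, 1229 values kept direction and side of the threshold, 201 lost the call and 6 reversed. The reversed log2 values were TRAV10N between lineages in CSA5 pools only (0.070), TRBV10 in CD4+ cells at CSA50 read from RNA (0.13), the RNA of Trbv19 in CD4+ cells (-0.24) and of Trbv4 (-0.10) and Trbv13-2 (-0.12) in CD8+ cells at CSA50 under library size, and TRBV20 cell against clonotype share with both chains (-0.0033). The cause was not tested.

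For usage over cells, the 6 calls of CD4+ cells at CSA50 became 0 with only the groups compared and 0 by the trend test, and 2 to 7 with 1 pool left out. The 1 call of CD8+ cells became 2 under TMM and 0 by the trend test, and 1 to 3 with 1 pool left out. At CSA5 the 0 calls became 2 when read from RNA in CD4+ cells, and 0 to 1 in CD8+ cells with 1 pool left out. For clonotypes at CSA50, the 6 calls of CD4+ cells became 3 with DESeq2, and the 3 of CD8+ cells became 0 with DESeq2, 1 under TMM, 1 without chains more frequent in another pool, 1 with both chains and 0 to 3 with 1 pool left out. At CSA5, 0 calls in CD4+ cells became 1 with only the groups compared and 0 to 1 with 1 pool left out, and 1 call in CD8+ cells became 0 with DESeq2, with no filter and without chains more frequent in another pool, and 0 to 1 with 1 pool left out. The 52 lineage calls became 32 in saline pools only and 32 in CSA5 pools only. With TRAV segments merged into families there were 29 calls. Fewer features were tested then, so 29 beside 52 does not count calls lost. The cell against clonotype calls, 5 in CD4+ cells, became 0 with both chains, 0 without the largest clonotype and 0 to 6 with 1 pool left out, and 0 in CD8+ cells became 2 and 7 in the first pair of these.

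For V gene RNA at CSA5, 22 calls in CD4+ cells became 12 with DESeq2, 40 with no filter and 34 with only the groups compared, and 19 in CD8+ cells became 12 with DESeq2 and 39 with no filter. At CSA50, 30 in CD4+ cells became 18 with DESeq2 and 49 with no filter, and 44 in CD8+ cells became 24 under library size.

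With pool number as a replicate block, the clonotype calls at CSA5 became 3 in CD4+ cells and 0 in CD8+ cells. Deviations of pools with the same number correlated at -0.42 to 0.46 over 36 pairs of pools. In CD8+ cells every pair of saline with CSA5 pools (0.20 to 0.41, both chains) and of saline with CSA50 pools (0.41 to 0.46, beta chain) was above 0.1, and the other comparisons with saline held pairs below it. Of the segments called at CSA50 in CD4+ cells, TRBV16 over cells (adjusted p = 0.074) and TRBV12-1 over clonotypes (0.056) lost the call under the block, and TRBV15 in CD8+ cells kept it (0.0020).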

Other observations

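Some cells had Trbv RNA and no beta chain in the receptor table, and this share differed between segments. Of CD4+ cells read as TRBV19 from RNA, 52.2% had a receptor beta chain with saline, 56.7% at CSA5 and 77.1% at CSA50, and in CD8+ cells 72.9% did over all pools. A UMI of Trav14d-3-dv8, the alpha gene of the TEa receptor, was found in 270 of 276 cells marked TEa (97.8%). Among unmarked CD4+ cells without a beta chain whose highest gene was Trbv19 it was found in 73 of 459 (15.9%, exact 95% binomial interval 12.7 to 19.6%), against 50 of 1049 (4.77%) where another Trbv gene was highest and 32 of 689 (4.64%) where the receptor table gave a beta chain. By group the first share was 17.1% with saline, 19.2% at CSA5 and 4.41% at CSA50. In CD8+ cells it was 3 of 228 (1.32%). The source of these UMIs was not tested.

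Of 12932 distinct beta chains, 566 were in 2 or more pools, 504 of them within 1 group, and 5 were in all groups. Apart from the TEa beta chain these were a TRBV14 chain in 4 pools, a second TRBV10 chain in 3 pools, and the chains shown here, a TRBV10 chain in 8 cells of 5 pools and a chain of the joint TRBV12-2 and TRBV13-2 entry in 4 cells of 4 pools, with the bases shared with the germline V end in capitals.
TRBV10 to TRBJ2-2: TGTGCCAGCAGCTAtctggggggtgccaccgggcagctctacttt
TRBV12-2 and TRBV13-2 to TRBJ1-1: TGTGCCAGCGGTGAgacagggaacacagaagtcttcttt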
